A study of Homo sapiens with 12 samples.

Results

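IDO1, KYNU, ACOD1, GCH1 and SOD2 are enzymes at which inflammatory signals meet metabolism, and their transcripts were followed in HT1080 fibrosarcoma cells treated with either of 2 inflammatory stimuli. The 5 genes were selected on the fold changes of treated against untreated cells in these same data, where IDO1, SOD2 and ACOD1 are among the strongest rises, with KYNU and GCH1 added as enzymes of the adjoining steps. They were taken by symbol out of 16633 genes listed in at least 1 of the 2 expression tables. KYNU, ACOD1, GCH1 and SOD2 were read in both tables and IDO1 in the ConA table alone, and IDO1 was not analysed with PMA here. Because the comparison of treated with untreated cells chose these genes, their own changes are given as a description without a test.

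HT1080 is an established human fibrosarcoma line, a tumor of connective tissue, and the labels give its genotype as wt. All 12 libraries of polyadenylated RNA came from cells kept in medium depleted of biotin and lowered to 1% fetal bovine serum (FBS) for the last 24 h. In the PMA experiment, 3 libraries received PMA at 40 nM (phorbol 12-myristate 13-acetate), which activates protein kinase C as an analogue of diacylglycerol, and 3 were untreated controls. In the ConA experiment, 3 libraries received 40 µg/mL concanavalin A (ConA), a lectin that binds mannose-containing glycans at the cell surface, and 3 further libraries, numbered 4, 5 and 6, were untreated. PMA and ConA were each applied for 24 h. The study treated this line to ask how inflammatory stimuli change the surroundings of a secreted protease inhibitor, and the RNA libraries measure the transcripts under those stimuli. The labels do not say whether libraries of a group came from separate cultures, so the error given is the spread between libraries, which may be technical.

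IDO1 opens the ring of tryptophan and starts the kynurenine pathway, and it is best known as an interferon-induced enzyme that starves T cells and microbes of tryptophan. KYNU, kynureninase, acts further down the same pathway on the way to quinolinic acid and NAD. ACOD1 removes a carboxyl group from cis-aconitate of the citric acid cycle and makes itaconate, a metabolite known from activated macrophages. GCH1, GTP cyclohydrolase, makes the precursor of tetrahydrobiopterin (BH4), the cofactor of the nitric oxide synthases and aromatic amino acid hydroxylases. SOD2 is the manganese superoxide dismutase of the mitochondrial matrix, which turns superoxide into hydrogen peroxide and is a textbook target of NF-kB.

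The stretches just before the transcript start are shown for KYNU, ACOD1 and SOD2. These are the 3 of 5 members matched by symbol in the RefSeq promoter table used here (assembly GRCh38.p14). The windows hold 250 bases, 5′ to 3′ on the strand of the gene, and lie at chr2:142877414-142877663 on the plus strand for KYNU, at chr13:76948261-76948510 on the plus strand for ACOD1, and at chr6:159693242-159693491 on the minus strand for SOD2. SOD2 has 4 entries, and the one with the most annotated transcript starts close by is shown. Capitals mark every match, on either strand, to the motifs named below.
KYNU: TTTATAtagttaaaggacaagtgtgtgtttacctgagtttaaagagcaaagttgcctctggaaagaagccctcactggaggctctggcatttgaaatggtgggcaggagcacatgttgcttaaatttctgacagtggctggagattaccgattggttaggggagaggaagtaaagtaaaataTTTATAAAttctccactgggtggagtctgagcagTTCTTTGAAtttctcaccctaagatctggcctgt
ACOD1: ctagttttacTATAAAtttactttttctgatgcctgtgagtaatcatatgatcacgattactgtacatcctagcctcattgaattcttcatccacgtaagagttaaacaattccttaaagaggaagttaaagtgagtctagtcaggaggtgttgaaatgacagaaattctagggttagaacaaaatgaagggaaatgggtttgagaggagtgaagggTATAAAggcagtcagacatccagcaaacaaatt
SOD2: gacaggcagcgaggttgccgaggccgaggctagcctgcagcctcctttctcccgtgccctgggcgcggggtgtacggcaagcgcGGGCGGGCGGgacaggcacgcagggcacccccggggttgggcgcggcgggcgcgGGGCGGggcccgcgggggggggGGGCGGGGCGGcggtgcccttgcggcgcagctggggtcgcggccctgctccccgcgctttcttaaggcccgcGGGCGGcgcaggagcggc

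The windows were searched on both strands for the interferon-stimulated response element core (GAAA, any 2 bases, GAAA), the gamma-activated site TTCNNNGAA bound by STAT factors, the NF-kB consensus, the AP-1 site TGANTCA and the antioxidant response element core TGACNNNGC. KYNU held 1 gamma-activated site, 34 to 26 bases before the start, and ACOD1 and SOD2 held no match to any of these 5 motifs. Among 35116 promoter windows of the same length, 3.02% held the interferon-stimulated element core, 6.57% the gamma-activated site, 5.21% the NF-kB consensus, 6.57% the AP-1 site and 10.9% the antioxidant element core. The TATA box core TATAAA and the GC box core GGGCGG were added after the sequences had been read. ACOD1 held the TATA core 33 to 28 bases before its start and again 240 to 235 bases before it, and KYNU held it 3 times, with 2 of the matches overlapping each other between 68 and 61 bases before the start. SOD2 held 6 matches to the GC box core, some of which overlap, and its window was 80.8% G or C against 42.4% for KYNU and 36.4% for ACOD1. Of all windows, 10.7% held the TATA core and 42.6% the GC box core. A match describes letters in the window and not a bound site.

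Expression is given as the normalized counts that were deposited, which are estimated reads divided by 1 factor per library and are not corrected for transcript length. A library held 33639868 to 45593129 estimated reads, with a median of 40971335. Fold changes were fitted with limma on log2(normalized count + 1), and a gene was called when its log2 fold change was at least 1 in either direction with a Benjamini-Hochberg adjusted p of at most 0.0001. With PMA, 4.03% of 15153 genes tested were called higher and 4.61% lower. With ConA, 5.83% of 15139 genes tested were called higher and 2.88% lower. The median log2 fold change of all genes was 0.0029 with PMA and -0.0022 with ConA.

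**Figure D1:**
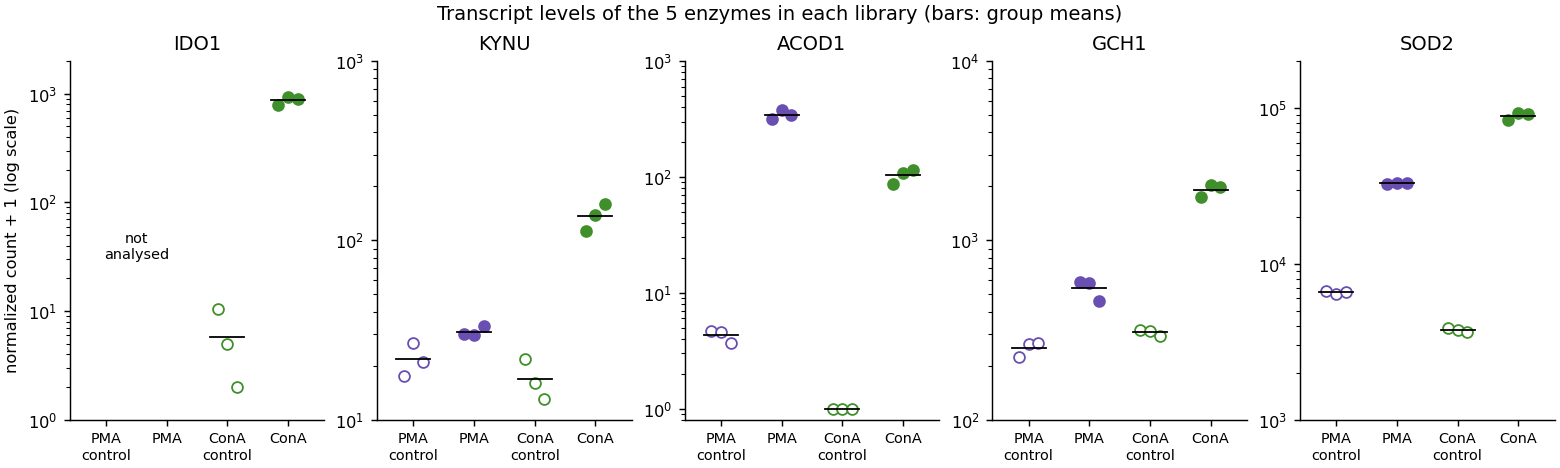
Normalized count plus 1 on a log axis for each of the 12 libraries, with a panel per enzyme and its own axis range. Open points are untreated controls, filled points are treated libraries (purple PMA, green ConA), and bars are group means of 3 libraries. Every treated library lies above every control of its own table in each panel measured, and IDO1 has no PMA values.

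IDO1 was near the limit of detection in untreated cells and became a readily detected transcript with ConA. The untreated libraries held 9.38, 4.00 and 1.00 normalized counts, from 9, 4 and 1 estimated reads. The ConA libraries held 789, 943 and 903. The treated values lie close together and the groups do not overlap, while the untreated values spread over a range wider than their mean. The mean went from 4.79 ± 4.24 to 878 ± 79.8 (SD, n = 3 each), a 183-fold difference, and the log2 fold change was 7.54 (SE 0.40). This was the 5th largest of the 15139 fitted increases with ConA. The untreated libraries hold few reads, and the log2 fold change was 6.93 without untreated library 6 and 8.11 without untreated library 4. In RNA from whole cultures, a change in the number of cells expressing a gene and a change in its RNA per cell cannot be told apart, here and for every gene that follows.

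KYNU was little higher with PMA and several-fold higher with ConA. In the PMA experiment the untreated libraries held 16.6, 25.9 and 19.9 normalized counts and the treated libraries 29.0, 28.5 and 32.3. The groups do not overlap, but the highest untreated library lies close to the lowest treated library. The mean was 20.8 ± 4.74 untreated and 29.96 ± 2.07 with PMA (SD, n = 3 each), 1.44-fold higher, with a log2 fold change of 0.53 (SE 0.25) that lies under the fold threshold. In the ConA experiment the untreated libraries held 20.8, 15.0 and 12.0 and the ConA libraries 112, 137 and 159. All ConA values lie far above the untreated ones, with a mean of 15.96 ± 4.49 against 136 ± 23.5 (SD, n = 3 each), 8.53-fold higher and 3.03 (SE 0.23) on the log2 scale.

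ACOD1 was close to absent from untreated cells in both tables and was present in all 6 treated libraries. With PMA the untreated libraries held 3.69, 3.58 and 2.71 normalized counts, from 4, 4 and 3 estimated reads, and the treated libraries 318, 374 and 342. The treated group stands wholly apart, with a mean of 344.7 ± 27.8 against 3.32 ± 0.54 (SD, n = 3 each), 104-fold higher, and a log2 fold change of 6.33 (SE 0.20), the 4th largest of the 15153 fitted increases with PMA. The untreated libraries of the ConA table held 0 reads each, and the ConA libraries held 85.1, 107 and 114 normalized counts with a mean of 101.9 ± 15.1 (SD, n = 3). Set against a floor of 3 reads per library, which is 3.05 normalized counts, ACOD1 was at least 33.5-fold higher with ConA, or at least 5.07 on the log2 scale. The PMA libraries held the higher normalized counts, but the tables were normalized apart, and the untreated PMA libraries also held the higher counts.

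GCH1 was well detected in untreated cells and was higher with both stimuli. With PMA the untreated libraries held 224, 263 and 268 normalized counts and the treated libraries 587, 579 and 461. The PMA library at 461 is lower than the others but still above every control. The means were 251.7 ± 24.1 and 542.4 ± 70.7 (SD, n = 3 each), 2.16-fold apart, with a log2 fold change of 1.10 (SE 0.11). In the ConA experiment, 315, 310 and 293 normalized counts in untreated libraries became 1746, 2027 and 1990 with ConA. These groups are far apart, with means of 305.8 ± 11.7 and 1921 ± 152 (SD, n = 3 each), 6.28-fold higher and 2.64 (SE 0.08) on the log2 scale. GCH1 has no entry in the promoter table.

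SOD2 was well expressed in untreated cells, was higher with both stimuli and was one of the most counted transcripts with ConA. With PMA the untreated libraries held 6681, 6429 and 6606 normalized counts and the treated libraries 32433, 33008 and 33020. The spread within each group is small against the gap between them, and the means of 6572 ± 129 and 32820 ± 335 (SD, n = 3 each) are 4.99-fold apart, with a log2 fold change of 2.32 (SE 0.04). With ConA the untreated libraries held 3852, 3751 and 3664 and the treated libraries 83278, 92523 and 90892. The means were 3756 ± 94.4 and 88900 ± 4930 (SD, n = 3 each), 23.7-fold higher and 4.56 (SE 0.05) on the log2 scale. SOD2 took 0.0178% of all normalized counts in untreated libraries of the PMA table and 0.0817% with PMA, where it ranked 142nd by count. It took 0.00876% in untreated libraries of the ConA table and 0.217% with ConA, where it ranked 21st of all genes by count, a rank that is not per length. SOD2-OT1, a noncoding gene annotated over the SOD2 span on the same strand and picked out after its values were seen, went the other way with PMA, from 84.2 ± 1.92 to 23.3 ± 5.44 normalized counts (SD, n = 3 each; log2 fold change -1.83, SE 0.20, limma adjusted p = 1.07e-05). With ConA it was 109 ± 22.8 and 68.7 ± 9.39 (SD, n = 3 each), a log2 fold change of -0.65 that did not pass the fold threshold. Reads in the shared span may have been divided between these genes, so the values of SOD2-OT1 are uncertain.

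**Figure D2:**
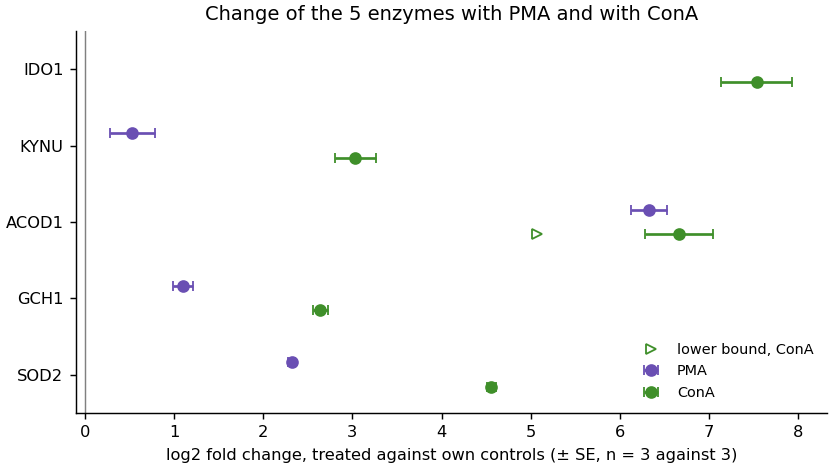
The log2 fold change of each enzyme against the controls of its own table, with PMA in purple and ConA in green, bars ± SE (n = 3 against 3). For ACOD1 with ConA, whose controls held no reads, the open triangle at 5.07 is the lower bound and the filled point is the fitted value, which depends on the added 1. KYNU, GCH1 and SOD2 lie further to the right with ConA than with PMA.

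The 4 members measured with both stimuli are set side by side here, each against the controls of its own table. KYNU, GCH1 and SOD2 had the larger log2 fold change with ConA, 3.03 against 0.53 for KYNU, 2.64 against 1.10 for GCH1 and 4.56 against 2.32 for SOD2. Subtracting the ConA change from the PMA change gave -2.51, -1.54 and -2.24 in the same order. For ACOD1 the values were 6.33 with PMA and at least 5.07 with ConA, so no order is given for it. Of the members, all 4 with PMA and all 5 with ConA had every treated library above every control. That separation was found in 34.8% of the genes tested with PMA and 34.9% of those tested with ConA, and since these contrasts chose the members nothing is read from the counts.

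Neighbouring enzymes and regulators were taken from 10 lists. The choice of the members did not use their values, but the lists were written with earlier results of these data known. The counts below are therefore a description. Over the 9 metabolic lists, 9 of 107 genes tested rose with PMA (8.41%) and 6 fell (5.61%), and 10 of 110 rose with ConA (9.09%) and 6 fell (5.45%). Of all genes tested, 4.03% were called higher and 4.61% lower with PMA, and 5.83% higher and 2.88% lower with ConA. The calls of each list below are to be read against these shares. No such share is given for counts at an unadjusted p under 0.05, so nothing is read from those. The difference between the changes with PMA and with ConA passed the same thresholds for 16 of 108 genes, against 10.6% of all 15030 genes compared. The other 92 genes with PMA and 94 with ConA did not pass. The adjusted p-values below are from limma over all genes of a table, and those of a difference are over all 12 libraries.

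Around IDO1 and KYNU, the kynurenine list moved at few of its steps. With PMA, 0 of 7 genes tested with limma passed (2 higher and 4 lower at an unadjusted p under 0.05, median log2 fold change -0.34), and with ConA 1 rose and 1 fell of 8 (median -0.10). KMO, the hydroxylase between kynurenine and the substrate that KYNU cleaves towards quinolinic acid, held 7.44, 1.22 and 4.87 normalized counts in untreated cells and 51.1, 52.6 and 63.2 with ConA. The treated libraries are all above the untreated ones, and the log2 fold change was 3.56 (SE 0.43, adjusted p = 5.63e-06). The p became 0.000102 without ConA library 3 and 0.00124 without the variance trend over the mean level. In the PMA table KMO held 4.03 and 8.57 normalized counts on average, too few to be tested there. The difference between its changes was -2.57 (SE 0.65, adjusted p = 0.00246) and did not pass.

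AFMID, the formamidase that follows IDO1, fell with ConA from 365, 405 and 388 to 201, 211 and 162 normalized counts (log2 fold change -1.02, SE 0.11, adjusted p = 2.07e-06). It passed the fold threshold narrowly, and the log2 fold change was -0.98 without untreated library 5 and -0.90 without ConA library 3. With PMA it was at -0.31, and the difference of 0.71 was under the fold threshold. QPRT, which turns quinolinic acid towards NAD, just missed the call with PMA at 165.5 against 64.6 normalized counts (log2 fold change -1.39, SE 0.20, adjusted p = 0.000119), with an adjusted p of 5.9e-05 without untreated library 3, 9.49e-05 without PMA library 2 and 9.99e-05 without PMA library 3. Its log2 fold change with ConA was -0.30, and the difference of -1.09 (SE 0.23, adjusted p = 0.000591) did not pass. TDO2, the liver-type dioxygenase that catalyses the same step as IDO1, did not pass with either stimulus (31.1 and 24.4 normalized counts with PMA, adjusted p = 0.202, and 58.2 and 93.1 with ConA, adjusted p = 0.00127). IDO2, the paralog of IDO1, was not analysed here.

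Among genes that use tryptophan or respond to its products, 2 were called with each stimulus. WARS1, the tryptophanyl-tRNA synthetase and a known interferon-induced gene, rose with ConA from 15701 to 37145 normalized counts on average (log2 fold change 1.24, SE 0.051, adjusted p = 6.11e-11) and was at 13577 and 14030 with PMA (log2 fold change 0.047, adjusted p = 0.29). The difference between these changes was -1.20 (SE 0.058, adjusted p = 1.24e-11). CYP1A1, the classic target of the aryl hydrocarbon receptor that kynurenine can activate, rose with PMA from 285, 297 and 318 to 1058, 1066 and 1056 (log2 fold change 1.82, SE 0.063, adjusted p = 5.96e-10). With ConA its log2 fold change was 0.92 (SE 0.10, adjusted p = 2.11e-06), under the fold threshold, and the difference between the changes, 0.90, was under it too. TIPARP, a further target of that receptor, was at 1.01 with ConA (SE 0.067, adjusted p = 1.19e-08), a call lost at 0.97 without untreated library 5 or ConA library 2 and at 0.98 without ConA library 3. The receptor gene AHR did not pass (-0.38 with PMA and 0.24 with ConA). SLC7A8, an amino acid carrier, fell with PMA (log2 fold change -2.02, SE 0.15, adjusted p = 4.7e-07). Of this list, 1 gene rose and 1 fell of 13 tested with PMA (median log2 fold change 0.13), and 2 of 12 rose with ConA (median -0.17).

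In NAD synthesis, the route that KYNU feeds, NAMPT of the salvage pathway rose with PMA, from 6504, 6471 and 6535 to 15562, 16302 and 15957 normalized counts (log2 fold change 1.29, SE 0.035, adjusted p = 9.17e-11). All PMA libraries stand well above their controls. With ConA it was 4938 and 8421 on average (log2 fold change 0.77, adjusted p = 1.93e-07), under the fold threshold, and the difference between the changes was 0.53. NMNAT2, which completes NAD, rose with PMA (187.5 to 700.1 normalized counts, log2 fold change 1.90, SE 0.071, adjusted p = 1.26e-09) and was at -0.32 with ConA, a difference of 2.21 (SE 0.12, adjusted p = 4.29e-11). These were the 2 genes of 9 tested that passed with PMA, and 0 of 9 passed with ConA in limma (1 higher and 5 lower at an unadjusted p under 0.05). The median log2 fold change of the list was -0.12 with PMA and -0.30 with ConA.

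**Figure D3:**
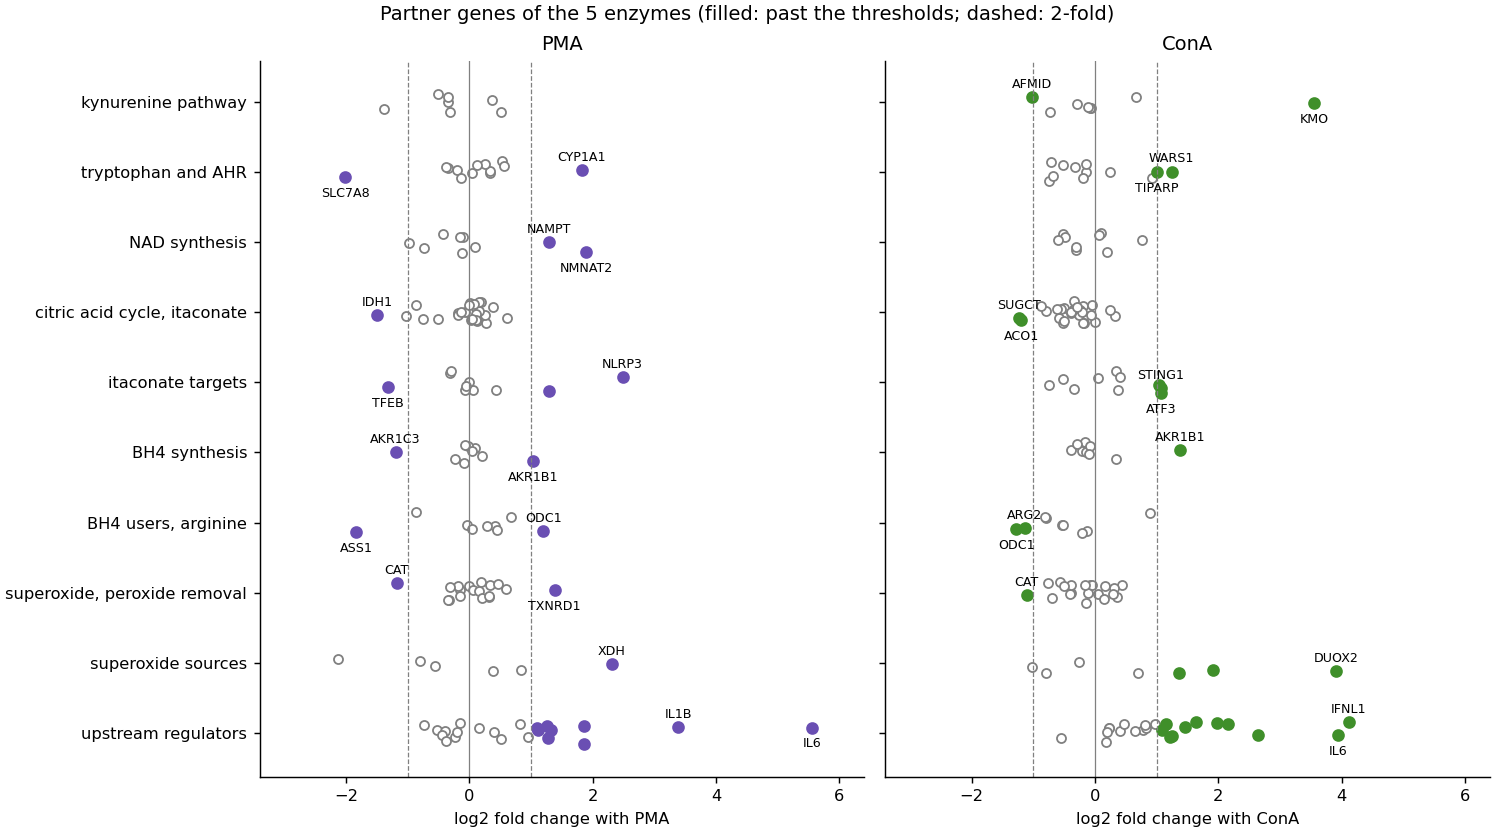
Log2 fold change of each tested partner gene with PMA (left) and ConA (right), a row per list, with filled points past both thresholds and dashed lines at a log2 fold change of 1 in either direction. Up to 2 called genes with large changes are labelled per row. Filled points are sparse in the metabolic rows. Among the upstream regulators they are 9 of 22 with PMA and 11 of 23 with ConA, all higher. Of all genes tested, 4.03% were called higher with PMA and 5.83% with ConA.

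Around ACOD1, the citric acid cycle enzymes mostly stayed under the thresholds. Of 26 genes tested, 1 fell with PMA and 2 with ConA in limma, and 0 were called higher with either. At an unadjusted p under 0.05 whatever the fold, 8 were higher and 8 lower with PMA, and 2 were higher and 20 lower with ConA. The share of all genes at that cut is not given, so these counts are not read as a shift of the list. The median log2 fold change was 0.028 with PMA and -0.34 with ConA. IDH1, the cytosolic isocitrate dehydrogenase, fell with PMA from 6064, 5714 and 5776 to 2027, 2005 and 2166 normalized counts (log2 fold change -1.50, SE 0.044, adjusted p = 1.72e-10) and was at -0.17 with ConA, a difference of -1.33 (SE 0.068, adjusted p = 2.35e-11). ACO1, the cytosolic aconitase and iron regulatory protein, fell with ConA from 6866 to 2998 on average (log2 fold change -1.20, SE 0.051, adjusted p = 1.14e-10) and was at -0.02 with PMA, a difference of 1.18 (SE 0.065, adjusted p = 7.1e-11). Of the genes that dispose of itaconate, SUGCT fell with ConA (542.8 to 233.7 normalized counts, log2 fold change -1.22, SE 0.12, adjusted p = 6.72e-07), and CLYBL did not pass (-1.03 with PMA, adjusted p = 0.00429, and -0.29 with ConA). SUGCT was at -0.51 with PMA, and its difference of 0.72 was under the fold threshold.

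Among genes reported as targets of itaconate or as sensitive to it, 2 rose and 1 fell of 10 with PMA, and 3 of 10 rose with ConA (median log2 fold change -0.03 and 0.36). NLRP3, the inflammasome sensor, rose with PMA from 532.8 to 2987 normalized counts (log2 fold change 2.49, SE 0.053, adjusted p = 1.36e-11). With ConA it was at 1.04 (SE 0.072, adjusted p = 2.05e-08), which fell under the fold threshold at 0.99 without untreated library 5, and the difference was 1.45 (SE 0.090, adjusted p = 3.24e-10). NFKBIZ, an atypical NF-kB regulator, rose with PMA (1.29, SE 0.068, adjusted p = 2.04e-08) and was at 0.41 with ConA. ATF3 rose with ConA (1.07, SE 0.062, adjusted p = 3.09e-09) and was at -0.07 with PMA, a difference of -1.14 (SE 0.084, adjusted p = 3e-09). STING1, an adaptor of DNA sensing, rose with ConA (1.07, SE 0.054, adjusted p = 6.52e-10), and TFEB, the regulator of lysosomal genes, fell with PMA (-1.33, SE 0.072, adjusted p = 2.6e-08). The differences between the changes for NFKBIZ (0.88), STING1 (-0.63) and TFEB (-0.81) were under the fold threshold. NFE2L2, which encodes NRF2, was at 0.059 with PMA and 0.046 with ConA and passed with neither.

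Around GCH1, the later steps of BH4 synthesis did not pass. PTS, the next enzyme, was at 0.088 with PMA and -0.16 with ConA, and SPR, which completes BH4, at -0.03 and -0.21. GCHFR, the feedback regulator of GCH1, was not analysed here. AKR1B1, an aldo-keto reductase able to act in a side route of BH4 synthesis, rose with ConA from 9481 to 24785 normalized counts (log2 fold change 1.39, SE 0.055, adjusted p = 4.72e-11). With PMA it was at 1.03 (SE 0.050, adjusted p = 9.96e-09), a call lost at 0.97 without untreated library 3. AKR1C3, a further reductase of that route, fell with PMA from 419.3 to 182.5 (-1.20, SE 0.089, adjusted p = 4.06e-07). These made up the list's calls, 1 higher and 1 lower of 9 with PMA and 1 higher of 9 with ConA, and the median log2 fold change was -0.03 with PMA and -0.14 with ConA.

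Enzymes that use BH4 or share arginine with the nitric oxide synthases included a gene that moved in opposite directions. ODC1, the first enzyme of polyamine synthesis, rose with PMA from 12416, 12827 and 12701 to 30114, 29617 and 27424 normalized counts (log2 fold change 1.20, SE 0.043, adjusted p = 8.13e-10). It fell with ConA from 10082, 10604 and 9839 to 4043, 4420 and 4137 (-1.28, SE 0.054, adjusted p = 9.67e-11). The difference was 2.48 (SE 0.068, adjusted p = 3.66e-15). ARG2, the mitochondrial arginase, fell with ConA (1279 to 582.4 normalized counts, -1.14, SE 0.074, adjusted p = 9.69e-09) and was at 0.41 with PMA, a difference of 1.55 (SE 0.094, adjusted p = 2.31e-10). ASS1, which rebuilds arginine from citrulline, fell with PMA from 127.9 to 35.7 normalized counts (-1.83, SE 0.22, adjusted p = 2.25e-05), with adjusted p-values of 0.000309 without untreated library 1, 0.000181 without untreated library 2 and 0.000185 without PMA library 2. With ConA ASS1 was at -0.52, and the difference of -1.31 (SE 0.27, adjusted p = 0.000416) did not pass. NOS2, the inducible nitric oxide synthase, was not analysed here. Of 9 genes tested, 1 rose and 1 fell with PMA (median log2 fold change 0.29), and 2 fell with ConA (median -0.54).

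Around SOD2, SOD1 passed the thresholds with neither stimulus, SOD3 was tested with ConA alone and did not pass, and catalase fell. SOD1, the cytosolic enzyme, held 4222 and 4184 normalized counts with PMA and 6419 and 6621 with ConA, log2 fold changes of -0.01 (SE 0.054) and 0.045 (SE 0.052) that did not pass. SOD3, the extracellular enzyme, was scarce, with 14.8 and 2.51 normalized counts in the PMA table, where it was not tested, and 21.3 and 23.9 with ConA (log2 fold change 0.14, adjusted p = 0.687). In the PMA table it held 19.4, 10.7 and 14.4 untreated and 3.48, 2.85 and 1.20 with PMA, so every PMA library lay under every control. The difference between its changes was -2.34 (SE 0.525, adjusted p = 0.000942) and did not pass. CAT, catalase, which breaks down hydrogen peroxide, fell with both stimuli. It went from 2077, 1890 and 1905 to 865, 867 and 853 normalized counts with PMA (-1.18, SE 0.051, adjusted p = 3.72e-09). With ConA it went from 2940, 2916 and 2802 to 1426, 1285 and 1316 (-1.10, SE 0.059, adjusted p = 1.23e-09). The treated libraries lie under all controls in both tables, and the difference between the changes was -0.08 (SE 0.076, adjusted p = 0.398). TXNRD1, the cytosolic thioredoxin reductase, rose with PMA (17526 to 45659 normalized counts, 1.38, SE 0.040, adjusted p = 1.66e-10) and was at -0.16 with ConA, a difference of 1.54 (SE 0.058, adjusted p = 3.5e-13). Of this list, 1 rose and 1 fell of 18 tested with PMA (median log2 fold change 0.10) and 1 fell of 20 with ConA (median -0.13).

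Enzymes that produce superoxide or peroxide rose with ConA for 3 of 7 genes tested, with a median log2 fold change of 0.70 for the list (-0.09 with PMA). DUOX2, a dual oxidase, went from 9.38, 9.50 and 12.0 to 185, 162 and 159 normalized counts (log2 fold change 3.91, SE 0.20, adjusted p = 7.02e-10). All ConA libraries lie far above their controls. In the PMA table DUOX2 held 12.0, 8.94 and 14.4 and then 1.16, 0 and 2.40 normalized counts and was not tested alone. The difference between the changes was -6.61 for DUOX2 (SE 0.55, adjusted p = 1.51e-08), a size that depends on the added 1. XDH, xanthine dehydrogenase, rose with PMA (224.7 to 1111 normalized counts, 2.31, SE 0.099, adjusted p = 3.77e-09), the 1 called gene of 6 tested, and also with ConA (199 to 514.7, 1.37, SE 0.097, adjusted p = 2.5e-08). Its difference of 0.94 (SE 0.14) stayed under the fold threshold, and reached 1.00 or 1.01 without untreated library 1 or 3 of the PMA table, or without untreated library 5 or ConA library 2.

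The list of cytokines, receptors and transcription factors upstream of these enzymes was written with earlier results known, so its counts are a description. Of 22 regulators tested with PMA, 9 rose and 0 fell, against 4.03% of all genes tested called higher and 4.61% lower. Of 23 tested with ConA, 11 rose and 0 fell, against 5.83% and 2.88%. At an unadjusted p under 0.05 in limma, 14 were higher and 8 lower with PMA, and 22 were higher and 1 lower with ConA. That cut takes in small changes, and the share of all genes at it is not given, so nothing is read from these counts. The median log2 fold change of the list was 0.67 with PMA and 0.97 with ConA. STAT2, a transcription factor of interferon signalling, rose with ConA from 2239, 2261 and 2285 to 8646, 8827 and 9389 normalized counts (log2 fold change 1.98, SE 0.052, adjusted p = 3.69e-13). With PMA it was 2200, 2156 and 2214 before and 1954, 1830 and 1790 after (-0.24, SE 0.046, adjusted p = 0.000793), under the fold threshold, and the difference was -2.22 (SE 0.066, adjusted p = 1.02e-14). IRF1, an interferon-induced regulator of IDO1, rose with ConA from 2365 to 5500 normalized counts (1.22, SE 0.062, adjusted p = 6.92e-10) and was at -0.45 with PMA, a difference of -1.66 (SE 0.079, adjusted p = 7.48e-12). IFNL1, a type III interferon, went from 0, 3.00 and 2.00 to 36.1, 39.7 and 40.4 normalized counts with ConA (fitted log2 fold change 4.11, adjusted p = 6.69e-06), with adjusted p-values of 0.000116 without ConA library 2 and 0.000129 without ConA library 3.

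Several NF-kB genes rose with both stimuli. NFKB1 rose with PMA (1932 to 4692 normalized counts, 1.28, SE 0.037, adjusted p = 1.55e-10) and with ConA (2450 to 5215, 1.09, SE 0.055, adjusted p = 6.85e-10), and the difference of 0.19 (SE 0.064) stayed under the thresholds. RELA was at 0.39 and 0.47 and passed with neither. NFKB2 and RELB were also called with both. IL6 was called higher with both, from 221.5 to 10478 normalized counts with PMA (5.56, SE 0.060, adjusted p = 6.35e-14) and from 135.7 to 2102 with ConA (3.94, SE 0.092, adjusted p = 9.71e-14), with a difference of 1.62 (SE 0.11, adjusted p = 1.64e-09). IL1B rose with PMA from 20915 to 219005 (3.39, SE 0.053, adjusted p = 1.62e-12) and was at 0.97 with ConA (SE 0.061), which passed the fold threshold at 1.04 without ConA library 1. TNF held 14.8 and 56.7 normalized counts with PMA (1.85, SE 0.24, adjusted p = 4.6e-05) and 8.77 and 42.5 with ConA (2.15, SE 0.28, adjusted p = 1.1e-05). Its PMA call was lost without untreated library 1 or 2 or without any of the PMA libraries (adjusted p 0.000202 to 0.000363), and its ConA call without ConA library 2 or 3 (0.000131 and 0.000226). The remaining calls were IL1A, CEBPB and IFNGR2 with PMA and IL1R1 and IFNAR2 with ConA.

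The genes that followed each member most closely were found by the root mean square difference of log2(normalized count + 1), centred on the controls of each table, over 12 libraries and 14660 genes. These distances are a description, since all genes share the same libraries and controls. KYNU was nearest to IL12RB1 (0.252), FRG2 (0.272) and ISG20 (0.273). ACOD1 was nearest to the chemokine CCL3 (0.423), whose log2 fold change was 6.59 with PMA and 6.41 with ConA, followed at a larger distance by CCL3L1 (0.977) and TNIP3 (1.19). CCL3 and CCL3L1 are near-identical genes, so reads may have been divided between them. GCH1 was near STX11 (0.164) and C1QTNF1 (0.193). SOD2 was nearest to BIRC3 (0.274), GBP6 (0.324) and the complement gene C3 (0.352), and BIRC3 was at 2.19 with PMA and 4.11 with ConA. For IDO1, over the 6 libraries of the ConA table and 15138 genes, a comparison added after the data were seen, the nearest were LOC102724908 (0.549), CACNA1I (0.627) and OLR1 (0.638).

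**Figure D4:**
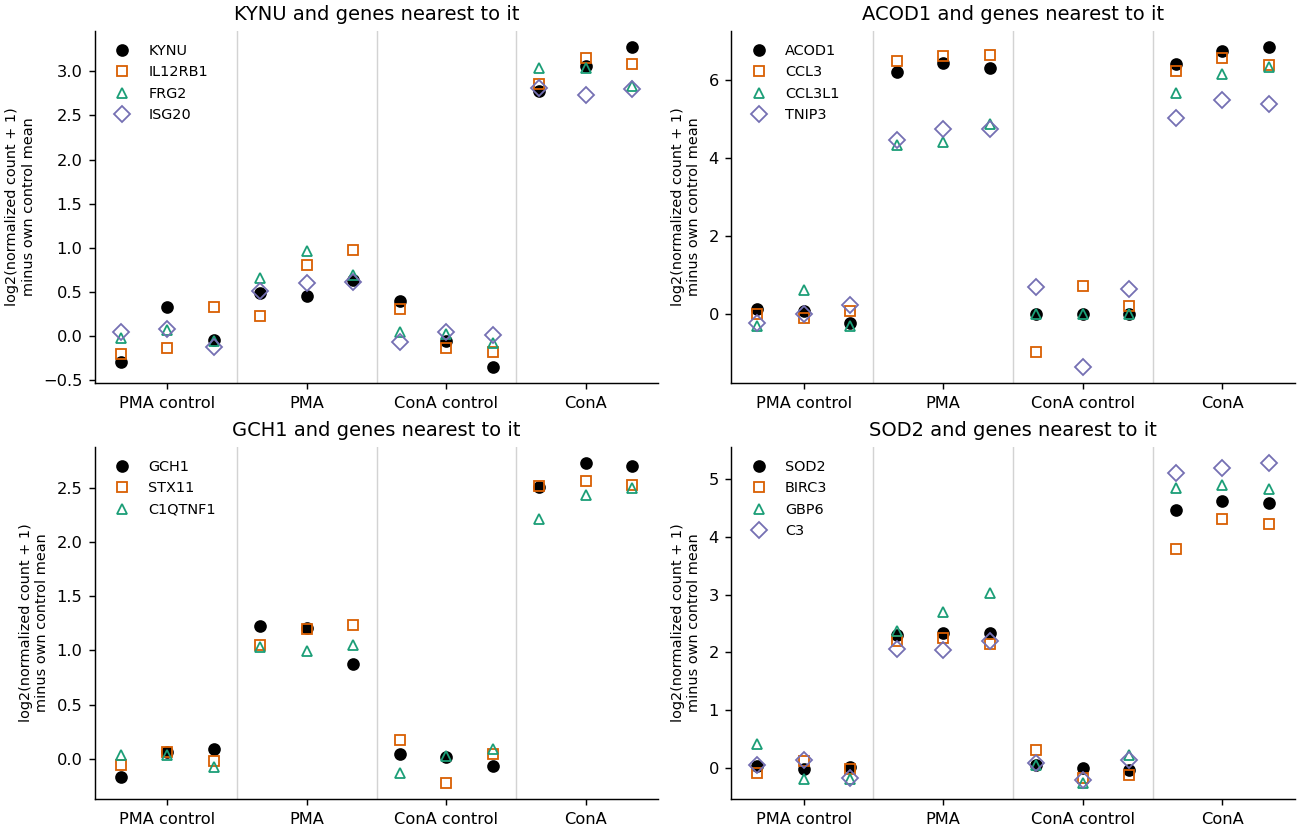
Log2(normalized count + 1) minus the mean of the controls of the same table, for KYNU, ACOD1, GCH1 and SOD2 (black) and genes among the 3 nearest to each (open symbols), in the 12 libraries ordered by group. STX11 and C1QTNF1 lie within 0.193 of GCH1 by root mean square difference, and CCL3L1 and TNIP3 lie under ACOD1 in the PMA libraries.

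Since IDO1 and ACOD1 are best known from leukocytes, marker genes of other cell types were read in the same libraries. All 10 mesenchymal markers were listed in both tables, VIM and FN1 leading, with sums of 469900 to 585200 normalized counts in untreated libraries, 492300 to 511000 with PMA and 359600 to 399100 with ConA. Of these, S100A4 was called lower with ConA (log2 fold change -1.05, adjusted p = 7.02e-05). Of 16 leukocyte markers, 11 were read in the PMA table, with sums of 1044 to 1147 in untreated libraries and 1327 to 1851 with PMA, and 5 in the ConA table, with sums of 530.4 to 587.3 untreated and 473.6 to 575.8 with ConA. CSF1R held the most in both (303 and 330 normalized counts with PMA, 357 and 260 with ConA). The leukocyte genes CD3E, PTPRC, CD2 and NKG7 were read in the PMA table alone. They held 117, 180.1, 75.9 and 176 in untreated cells and 203, 243, 103 and 259 with PMA, and none of them passed the thresholds. The T cell gene CD3D was read in both tables, at 84.0 and 103 with PMA and 26.6 and 24.2 with ConA, and passed with neither. CD163, a macrophage receptor, rose with PMA from 3.63 to 28.2 (2.67, SE 0.36, adjusted p = 5.28e-05). ITGAM was at 3.69 and 29.4 with ConA (2.88, adjusted p = 0.000134), which did not pass, and at 35.1 and 37.2 with PMA. LYZ held 10.8 untreated and 2.77 with PMA, too few to be tested there. ITGAX (120 and 241) and FCGR3A (6.35 and 18.5) were higher with PMA but did not pass. In the ConA table LYZ held 93.3 and 111 and ITGAX 85.4 and 98.6, and neither passed. CD14, AIF1, MS4A1 and CD79A were not analysed here. Epithelial markers (3 and 6 of 7 read) summed to 170.1 to 332.4, and endothelial markers (4 of 5) to 164.6 to 280.1, over all libraries. The part of these transcripts in the values of IDO1 and ACOD1 was not tested.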

How the data were processed

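RNA of HT1080 cells was sequenced from 12 libraries, 3 per group, after polyA selection. The submitters' processing notes name Partek, Bowtie2, STAR and DESeq2 and the builds mm10 and hg19, without roles or versions. The authors deposited a signal value for each gene, a normalized count, which holds estimated reads divided by a factor per library and was made for each table apart. Each listed gene has at least 10 estimated reads in some library. Of values between 5 and 60, 80.16% to 82.6% became whole reads (tolerance 0.02) under the best factor, so tests for read counts were not run. Replicates differed by 3.64 to 17.25 times the variance that sampling alone gives.

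Groups came from the labels. Within each table, limma 3.58.1 (R 4.3.3) with a variance trend was fitted to log2(value + 1) of genes with a mean of at least 10, and the Benjamini-Hochberg adjustment covered all genes tested. The difference between stimuli was fitted over all 12 libraries. A group without reads was set at 3 reads per library, a floor that covers counting error only.

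The members and gene lists were chosen with earlier results of these data known, and the lists were written from general knowledge. Named are the members, partner genes fixed by name, at most 6 called genes per list by size of change, and the 3 genes nearest to each member. Further regulators, markers and SOD2-OT1 were named after their values were seen, and some named by the rule are not reported here. The fits were tested on simulated counts with a fixed spread, in which only well expressed genes were changed. That test does not cover scarce genes such as IDO1 and ACOD1 in untreated cells. Alternatives were other pseudocounts, filters, normalization, variance model, threshold and fit, the replicate block, and leaving out each library. Promoter windows are from RefSeq on GRCh38.p14, and no position in the files was used.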

Additional observations from a re-analysis of the deposited data

How the results depend on the processing

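Leaving out the variance trend lowered the PMA calls from 1310 to 867 genes (46.6% and then 54.2% of them higher) and the ConA calls from 1318 to 662 (66.9% and then 76.4% higher). Leaving out 1 library at a time gave 1107 to 1250 genes with PMA, 1122 to 1417 with ConA and 1427 to 1593 for the difference, against 1587 with all libraries. With the replicate block 1264 genes were called with PMA. Libraries of the same number in the PMA table correlated at -0.064, 0.096 and 0.096 in their deviations from the group means, so the numbers are not shown to pair them, and the ConA groups share no numbers. The members kept their direction under every alternative run. Leaving out a library or changing the pseudocount could not reverse it, since every treated library lies above every control of its table. The kept direction is therefore no support for these changes. With a pseudocount of 10 the log2 fold change was 5.94 for IDO1 with ConA, 2.49 for KYNU with ConA, and 4.73 with PMA and 3.48 with ConA for ACOD1, since a larger added value shrinks the change of scarce genes. With a pseudocount of 0.1 ACOD1 was at 6.66 with PMA and 9.98 with ConA. With quantile normalization the values were 0.85 for KYNU with PMA, 5.62 for ACOD1 with ConA, and 2.17 with PMA and 4.72 with ConA for SOD2, and the cause was not tested. Without 1 library, the log2 fold change ranged from 6.93 to 8.11 for IDO1, and with ConA from 2.86 to 3.23 for KYNU, from 6.59 to 6.80 for ACOD1, from 2.60 to 2.71 for GCH1 and from 4.53 to 4.61 for SOD2. With PMA the ranges were 0.38 to 0.69, 6.22 to 6.39, 1.02 to 1.21 and 2.30 to 2.33 for the same 4 genes. Of 1937 alternative values for 130 results on named partner genes, 1885 kept their side of the thresholds, 35 lost it, 17 gained it and 0 reversed, with changes in 20 of the 130 results. The calls lost without the variance trend were those of KMO, AFMID, SUGCT, TIPARP, NLRP3 and IFNL1 with ConA and of ASS1 and TNF with PMA. With quantile normalization AKR1B1 with PMA was at 0.88, and NLRP3 and TIPARP with ConA at 0.96 and 0.98, under the fold threshold.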

Other observations

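The genes nearest to each member change entirely with the measure of likeness. By Pearson correlation over the 12 libraries, which ignores the size of a change, the 3 nearest to ACOD1 were found to include UXS1 (r = 0.9986) and FLI1 (r = 0.9982), whose log2 fold changes with PMA and ConA were 1.21 and 1.21, and 0.65 and 0.65. The nearest to SOD2 were SQOR (r = 0.9984), the mitochondrial sulfide quinone oxidoreductase, SPATS2L (r = 0.9983) and EXO1 (r = 0.9982). For GCH1 they were MMP13 (r = 0.9962), NCEH1 (r = 0.9949) and STING1 (r = 0.9939), and for KYNU they were BRIP1 (r = 0.9941), SCARB2 (r = 0.9904) and EXO5 (r = 0.9901). These correlations are descriptions over libraries that share controls and fall into separate groups.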
